A study of Sus scrofa with 34 samples.

Results

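Bile acids are made from cholesterol in hepatocytes, secreted into bile and returned to the liver from the ileum. The genes described here are 10 pig genes of this cycle, chosen by symbol: CYP7A1, CYP8B1, CYP27A1 and CYP7B1, which encode hydroxylases of the synthesis routes, BAAT and SLC27A6, placed here with the last, acyl-CoA steps, SLC10A1, ABCB11 and ABCB4, which encode transporters of the hepatocyte membrane, and NR0B2, which encodes a repressor of the pathway. Of the 10 genes, 8 were found among the 25880 genes of the count tables, and CYP8B1 and ABCB4 were not analysed here because no identifier was paired with their symbols. In the liver 7 of the 8 passed the filter on low counts, and BAAT did not.

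The classic route starts with CYP7A1, its rate-limiting enzyme, and the alternative route with CYP27A1, followed by CYP7B1. Bile acids that reach the hepatocyte bind the receptor FXR (gene NR1H4), which raises NR0B2, also known as SHP, and SHP in turn lowers transcription of CYP7A1. SLC10A1 (NTCP) takes conjugated bile acids up from portal blood, and ABCB11 (BSEP) exports them into the bile canaliculus.

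RNA was measured by poly(A) RNA-Seq in the livers of weaned crossbred piglets (Landrace × Large White sows, Pietrain boars, both sexes in the trial) fed for 28 days, with 6 libraries for each of 4 diets: the basal diet (control), the basal diet with a phytogenic feed additive of essential oils and synthetic aroma compounds (PFA), a diet in which rapeseed oil had been oxidized by heating (OO), and the oxidized oil diet with the additive (OO + PFA). The diets without oxidized oil held only a small share of fresh rapeseed oil, and the oxidized oil was added in a much larger share at the expense of the other ingredients. Oil diets were thus also richer in fat and energy, which cannot be told apart from the oxidation of the oil. The ileum was measured in 5 control and 5 PFA pigs, which all gave a liver library too. The pigs of a diet shared a single pen, which leaves pen and diet confounded (they cannot be told apart), and in bulk tissue fewer cells of a type and less RNA per cell cannot be told apart.

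Between 18738055 and 42446834 read pairs per library were counted on genes. The liver library of OO + PFA pig 77 stood apart, with 36.6 read pairs of several alignments per 100 pairs counted on genes against at most 14.7 in the other livers. The study excluded a liver of this diet for its read quality without naming the animal. It was taken to be this one, and the liver tests below use the other 23 libraries, except an alternative fit of all 24. Library titles take the form PigLiv or PL, and the PL form holds 2 control, 3 PFA, 3 OO and 1 OO + PFA library of those tested. The hepatocyte markers ALB and ASGR1 averaged 85781 and 306 CPM (read counts scaled to library size, with TMM normalization factors) in control livers and stayed below 1 CPM in the ileum. The whole list of 8 hepatocyte markers summed to 87888 to 163836 CPM in control livers and to 2215 to 4895 CPM in control ileum. Other markers of the list were thus present in the ileum. SERPINA1, another marker of that list, was at only 3.09 CPM in control livers.

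NR0B2 was the member called between diets, and CYP7A1 is the gene its product represses, so the 250 bases upstream of both are shown here, read 5′ to 3′ from the RefSeq assembly Sscrofa11.1. They end at the start of the annotated NR0B2 gene (chr6:84225420-84225669, plus strand) and of the curated CYP7A1 transcript (chr4:74342873-74343122, plus strand). Capitals mark matches to 4 short motifs, searched on both strands and chosen after the sequences were seen. The motif TATANA is a TATA-type box. The motif CACGTG is an E-box, a site for basic helix-loop-helix factors. The motif AGGTCA is the half-site that many nuclear receptors recognize. The motif TCAAGG begins the site of LRH-1 (gene NR5A2), an activator of both genes.
NR0B2: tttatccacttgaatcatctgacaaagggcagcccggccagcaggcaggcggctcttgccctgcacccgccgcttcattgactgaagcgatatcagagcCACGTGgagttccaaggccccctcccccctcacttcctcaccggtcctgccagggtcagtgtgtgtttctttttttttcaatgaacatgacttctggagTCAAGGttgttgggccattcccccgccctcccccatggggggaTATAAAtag
CYP7A1: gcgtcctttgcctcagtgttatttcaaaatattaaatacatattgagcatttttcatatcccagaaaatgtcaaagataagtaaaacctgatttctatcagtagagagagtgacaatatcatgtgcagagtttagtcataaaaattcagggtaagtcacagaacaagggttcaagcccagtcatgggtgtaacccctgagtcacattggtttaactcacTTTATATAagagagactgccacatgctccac

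The NR0B2 sequence holds an E-box that begins 151 bases before the start, TCAAGG at 52 bases and a TATA-type box at 9 bases. In the CYP7A1 sequence 3 overlapping TATANA matches begin 29 to 31 bases before the start, and no match to the other motifs was found. Among 13706 pig genes with a position, 13.8% of the upstream sequences of this length hold TATANA, 6.92% hold CACGTG, 11.3% hold AGGTCA and 9.81% hold TCAAGG. Neither sequence holds AGGTCA. These matches describe letters in the window and not bound sites.

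In the RefSeq annotation of Sscrofa11.1, NR0B2 (ENSSSCG00000003565) spans chr6:84225670-84228156 on the plus strand and CYP7A1 (ENSSSCG00000006238) chr4:74343101-74372628 on the plus strand. CYP27A1 (ENSSSCG00000016199) spans chr15:120809886-120852196 on the plus strand, and ABCB11 (ENSSSCG00000015926) chr15:75402296-75487092 on the minus strand. SLC10A1 (ENSSSCG00000002313) spans chr7:93400037-93421989 on the minus strand, and SLC27A6 (ENSSSCG00000014257) chr2:131749759-131848278 on the plus strand. No position was matched for CYP7B1 (ENSSSCG00000022092) and BAAT (ENSSSCG00000035245).

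In control livers the members spanned 3 orders of magnitude. Per kilobase of annotated exon, SLC10A1 was at 223 ± 26.9 CPM and CYP27A1 at 218 ± 28.8 CPM (SD, n = 6), and their ranges overlapped. ABCB11 followed at 94.1 ± 13.7, CYP7A1 at 35.1 ± 13.3, NR0B2 at 5.22 ± 2.16 and SLC27A6 at 0.142 ± 0.0723 CPM per kilobase. Below CYP27A1 no pig's level of one gene reached the range of the next in this order. The exon lengths are from RefSeq, whereas the authors counted on Ensembl genes. No length was matched for CYP7B1 and BAAT, so these are given as CPM without length.

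SLC10A1 varied least among control pigs (CV 12.1%), and SLC27A6 (51.0%), NR0B2 (41.4%) and CYP7A1 (37.8%) varied most. BAAT, the enzyme that joins bile acids to glycine or taurine, had at most 1 count in any of these 23 livers, and its 4 counts in the control livers sum to a mean of 0.0223 CPM. SLC27A5, the bile acid-CoA ligase that acts before BAAT, was also low, at 4.04 ± 2.42 CPM in control livers (SD, n = 6). Whether the gene models counted hold the liver transcripts of BAAT, SLC27A5 and SERPINA1 was not tested, so these low counts do not show that the genes were silent.

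**Figure D1:**
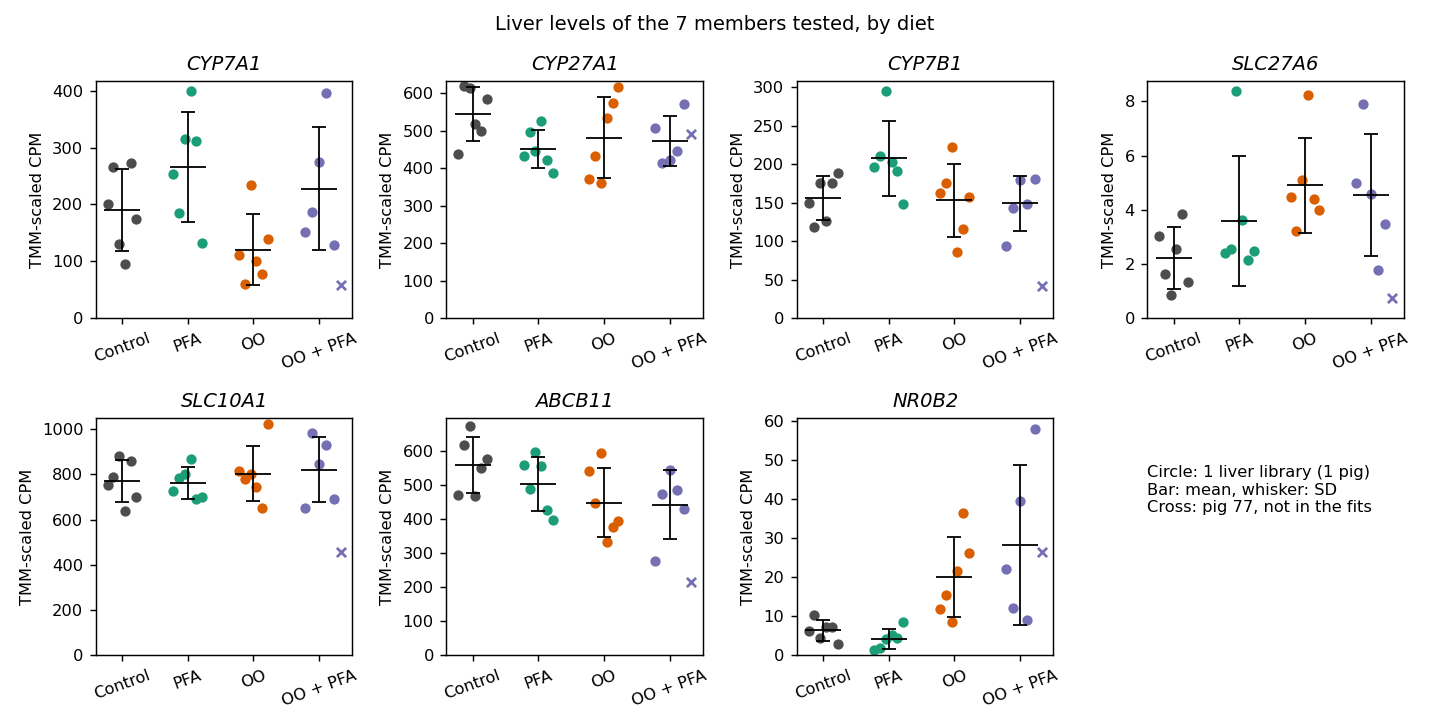
TMM-scaled CPM (vertical axis, starting at 0) of the 7 members tested, by liver diet. Each circle is 1 pig, the bar is the mean and the whisker the SD. The cross is pig 77, which is not in the fits of 23 livers. All OO and OO + PFA circles of NR0B2 lie at 8.50 CPM or higher, the control circles reach 10.4 CPM, and the groups of the other 6 genes overlap.

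NR0B2 was higher in the livers of pigs fed oxidized oil, with or without the additive. It ranged from 2.82 to 10.4 CPM in control pigs (median 6.60) and from 1.26 to 8.54 CPM in PFA pigs (median 4.25). With OO it ranged from 8.50 to 36.4 CPM (median 18.5), and with OO + PFA the 5 pigs had 9.06, 11.9, 22.1, 39.5 and 58.0 CPM. The OO + PFA and PFA groups did not overlap, which held for 4.69% of all genes tested with OO + PFA higher, whereas the lowest OO pig (pig 97) and the lowest OO + PFA pig lay below the highest control pig (pig 80). With OO + PFA higher than control, 7.13% of genes had groups that did not overlap, and NR0B2 was not among them. The CPM values rest on 52 to 275 counts per library without oxidized oil and on 240 to 1429 with it.

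Averaged over both oil diets against both diets without oxidized oil, NR0B2 rose by 2.20 on the log2 scale (SE 0.34, a 4.60-fold difference, adjusted p = 2.61e-04, edgeR quasi-likelihood test, Benjamini-Hochberg adjusted over 13831 genes). It was the only one of the 7 members called in this comparison (threshold 0.05 on the adjusted p), where 11.8% of all genes tested were called and 8.95% were called higher. The test across all 4 diets also called NR0B2 alone among the members (adjusted p = 0.00253), against 3.66% of all genes. Of the 7 members, 3 had an unadjusted p under 0.05 in each of these 2 tests, as did 3840 of the 13831 genes for the pooled oil diets and 3483 across diets.

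Against single diets, NR0B2 rose by 2.15 with OO + PFA relative to control (log2, SE 0.49, adjusted p = 0.0189), where 5.08% of all genes were called and 4.09% were called higher. Relative to PFA it rose by 2.74 with OO + PFA (SE 0.50, adjusted p = 0.00424), where 1.58% of genes were called and 1.24% were called higher. With OO alone the difference from control was 1.66 (SE 0.47, adjusted p = 0.0549) and missed the threshold, which 2.71% of genes passed. NR0B2 was the member called in both OO + PFA comparisons, and no member was called in the OO comparison, where 2 members had an unadjusted p under 0.05 and DESeq2 called both NR0B2 (adjusted p = 0.00864) and SLC27A6.

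The calls for OO + PFA were not kept in every subset of libraries. Without the OO + PFA pig at 58.0 CPM, OO + PFA against control gave 1.71 with an adjusted p of 0.0536. Within the PigLiv form the difference from control was 1.84 (adjusted p = 0.0766) and from PFA 2.08 (adjusted p = 0.241). The PL form has a single OO + PFA library, that of the pig at 58.0 CPM, and says little on these calls, with 2.95 from control (adjusted p = 0.302) and 4.06 from PFA (adjusted p = 0.0221). The liver of the pig at 58.0 CPM also held 675 CPM of APOA4, an apolipoprotein of enterocytes and liver, against at most 47.7 in the other 22 livers, while the enterocyte genes SI and FABP2 did not exceed 0.0974 and 0.117 CPM in any of the 23 livers. VIL1, the remaining gene matched in that list of 6, was at 7.63 CPM in this liver and at 2.19 to 31.5 CPM in the 23 livers, and the part of such cells in the NR0B2 value was not tested. For both oil diets pooled, NR0B2 was called without any single pig, with differences of 1.98 to 2.37.

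Base composition moved with the oil diets. NR0B2 exons are 61.6% GC, and the slope of log2 CPM on gene GC content in a library ran from -0.45 to -0.16 per 10 percentage points in control livers (median -0.35) and from -0.72 to -0.18 with PFA (median -0.36). It ran from -0.62 to 0.17 with OO (median -0.17) and from -0.20 to 0.24 with OO + PFA (median -0.07). With the slope as a term in the fit, NR0B2 was still called for the pooled oil diets (1.79, SE 0.34, adjusted p = 0.00309), for OO + PFA against control (1.73, adjusted p = 0.0415) and against PFA (2.22, adjusted p = 0.0349). Within libraries of the PigLiv form the pooled difference was 2.05 (adjusted p = 0.0176), and within the PL form, with its single OO + PFA library, it was 2.59 (adjusted p = 0.0408).

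**Figure D2:**
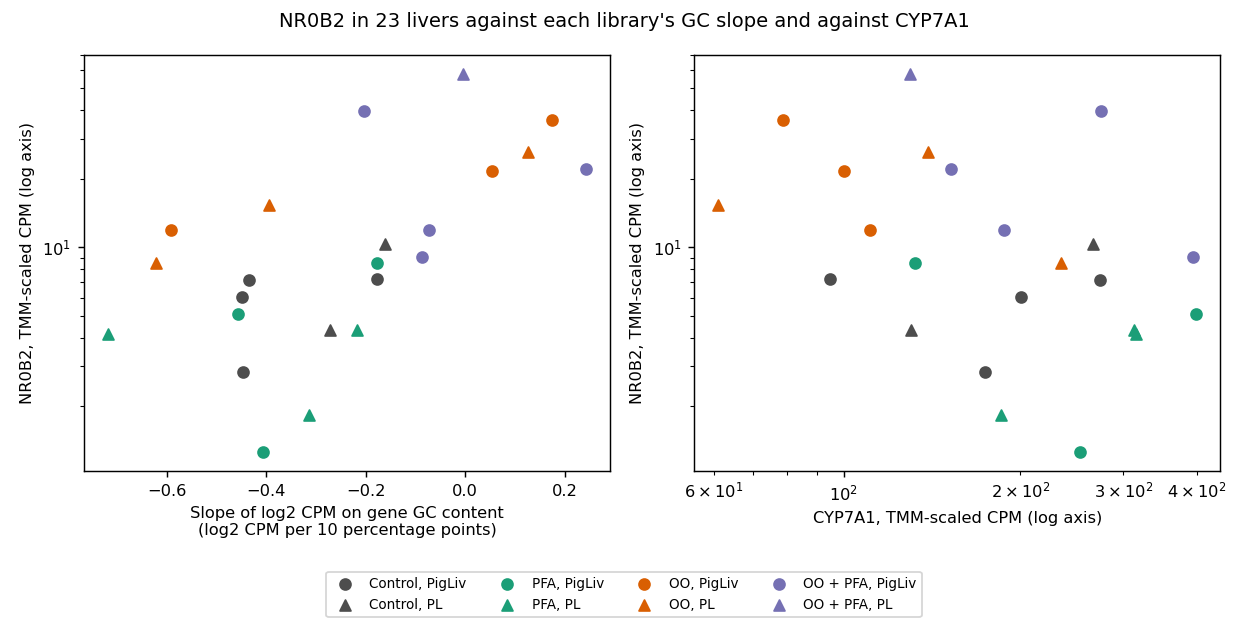
NR0B2 (log axis, TMM-scaled CPM) in 23 livers against the library's slope of log2 CPM on gene GC content (left) and against CYP7A1 (right, log axis); each point is 1 pig, colors give the diet and shapes the form of the library title. All livers with a slope above -0.16 are from oil-fed pigs, the 3 OO pigs with slopes from -0.62 to -0.39 have 8.50 to 15.4 CPM of NR0B2, and within diets no relation of NR0B2 with CYP7A1 passed the test.

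CYP7A1, the enzyme that NR0B2 represses, was not called in any pairwise comparison of diets. It ranged from 94.7 to 273 CPM in control pigs (median 188), from 132 to 400 CPM with PFA (median 282) and from 61.0 to 234 CPM with OO (median 105.4). The 5 OO + PFA pigs had 130, 152, 187, 275 and 395 CPM. All 4 diets overlapped, with 5 of the 6 OO pigs at 139 CPM or lower and OO pig 97 at 234 CPM.

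OO against control gave -0.65 for CYP7A1 (log2, SE 0.33, 95% interval -1.34 to 0.04, adjusted p = 0.261), and the pooled oil diets gave -0.44 (SE 0.24, adjusted p = 0.246). With the GC slope in the fit these were -0.55 (adjusted p = 0.291) and -0.20 (adjusted p = 0.784). PFA against control gave 0.49 (SE 0.33, adjusted p = 0.595), and OO + PFA against OO gave 0.92 (SE 0.35, interval 0.19 to 1.64, adjusted p = 0.487), the only member with an unadjusted p under 0.05 in that comparison. Across the 4 diets its adjusted p was 0.128, and DESeq2's likelihood ratio test gave 0.0431. Without OO pig 97 the edgeR test across diets called it (adjusted p = 0.0327) and the OO difference became -0.95 (adjusted p = 0.0617).

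No member was called for the additive itself in the liver by edgeR. For PFA against control and for OO + PFA against OO the percentage of all genes called was 0 in each case, though 1522 and 1176 genes had an unadjusted p under 0.05 and DESeq2 called 43 and 31. NR0B2 differed by -0.59 between PFA and control (SE 0.47, interval -1.56 to 0.38) and by 0.50 between OO + PFA and OO (SE 0.47, interval -0.48 to 1.47). The test of whether the oil difference depended on the additive gave 1.08 for NR0B2 (SE 0.67, adjusted p = 0.475), and it too called 0% of genes by edgeR and 150 genes by DESeq2.

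**Figure D3:**
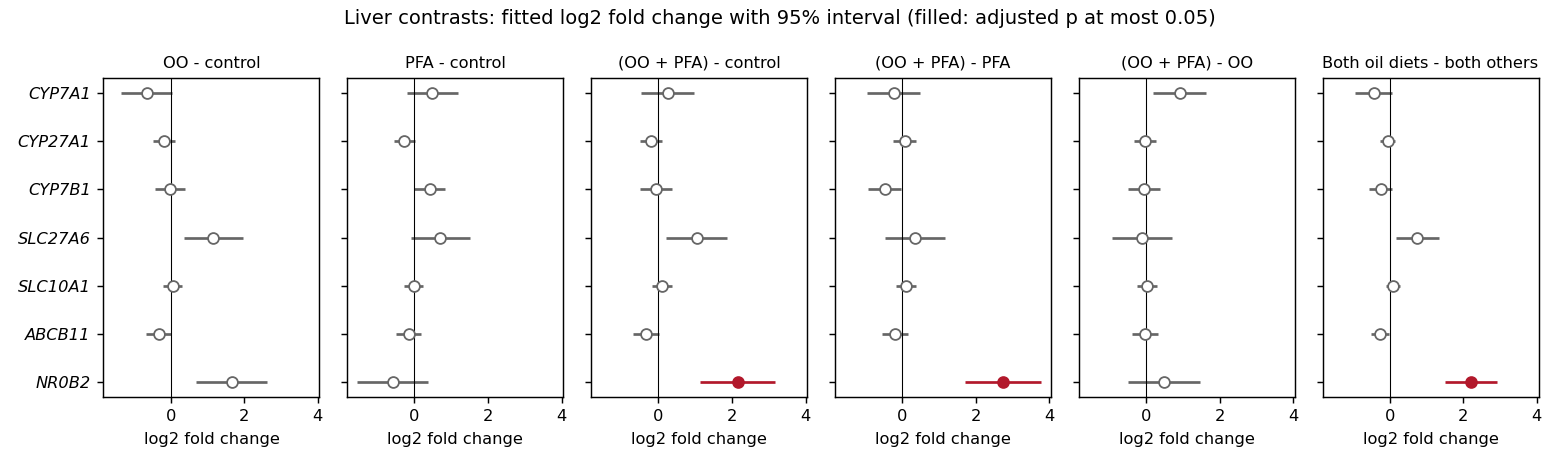
Fitted log2 fold change (horizontal axis) of the 7 members in 6 liver contrasts, with 95% intervals; filled points passed an adjusted p of 0.05. NR0B2 is the only filled gene, at 2.15, 2.74 and 2.20, and the intervals of CYP27A1 and SLC10A1 reach no farther than 0.56 from 0.

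SLC27A6, a member of the fatty acid transport protein family that also holds the bile acid-CoA ligase, had the second largest oil difference among the members. It ranged from 0.877 to 3.86 CPM in control pigs (median 2.09), from 2.13 to 8.37 CPM with PFA (median 2.51) and from 3.24 to 8.23 CPM with OO (median 4.43). The OO + PFA pigs had 1.77, 3.49, 4.59, 4.99 and 7.91 CPM. OO pigs lay above 5 of the 6 control pigs, and PFA pig 95 stood far above the other PFA pigs.

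OO against control gave 1.16 for SLC27A6 (log2, SE 0.39, adjusted p = 0.0931), OO + PFA against control 1.05 (SE 0.40, adjusted p = 0.120) and the pooled oil diets 0.75 (SE 0.28, adjusted p = 0.0775). None of these was called, and the gene had only 36 to 230 counts per library. Without PFA pig 95 the pooled difference was 0.98 (adjusted p = 0.0211), and without the OO + PFA pig at 1.77 CPM it was 0.86 (adjusted p = 0.0484). With a term for Y-linked expression both the OO difference (1.24, adjusted p = 0.0486) and the pooled difference (0.85, adjusted p = 0.0289) were called.

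The remaining synthesis enzymes tested were not called between diets. CYP27A1, which also starts the alternative route in mitochondria, averaged 545 ± 72.1 CPM in control (SD, n = 6), 451 ± 51.0 with PFA (n = 6), 481 ± 108 with OO (n = 6) and 472 ± 65.7 with OO + PFA (n = 5). Its pooled oil difference was -0.06 (interval -0.26 to 0.15). CYP7B1, which hydroxylates oxysterols, averaged 156 ± 28.6, 207 ± 48.2, 153 ± 47.3 and 149 ± 35.5 CPM in the same order. It was highest with PFA, by 0.41 over control (SE 0.20, adjusted p = 0.452). The edgeR fit of OO + PFA against PFA gave -0.48 (SE 0.21, unadjusted p = 0.0346, adjusted p = 0.181). With the GC slope in the fit the latter was -0.06 (adjusted p = 0.974).

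The transporters showed no call either. SLC10A1, the uptake carrier, averaged 770 ± 92.9, 761 ± 68.9, 803 ± 123 and 820 ± 144 CPM in control, PFA, OO and OO + PFA livers, and its pooled oil difference was 0.08 (interval -0.10 to 0.27). ABCB11, the export pump, averaged 558 ± 81.4, 503 ± 79.2, 447 ± 101.5 and 441 ± 101 CPM in that order. Its pooled oil difference was -0.25 (SE 0.12, interval -0.50 to -0.01, unadjusted p = 0.0430, adjusted p = 0.165), and the 4 diets overlapped. With the GC slope in the fit it was -0.07 (adjusted p = 0.814).

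Within diets, NR0B2 was compared with the other 6 tested members over the 23 livers, after the mean log2 CPM of each diet had been subtracted and with permutation within diets (100000 draws, two-sided). Pearson's r with CYP7A1 was -0.25 (permutation p = 0.288, adjusted over 6 relations 0.345) and Spearman's rho was -0.20 (permutation p = 0.392, adjusted 0.409). The largest values were -0.37 with ABCB11 (rho -0.38, permutation p = 0.122 and 0.107) and 0.35 with CYP27A1 (rho 0.36, permutation p = 0.105 and 0.112), each with adjusted values of 0.345 for r and 0.336 for rho. None of the 6 relations passed. PFA pig 67 and the OO + PFA pig at 9.06 CPM were the 2 livers farthest from the NR0B2 median after subtraction of the diet means. Without them r was -0.15 with CYP7A1, -0.33 with ABCB11 and 0.36 with CYP27A1.

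Across all 23 livers the genes with a pattern most like NR0B2 in log2 CPM were SLC25A45, a mitochondrial carrier (r = 0.87), G0S2, an inhibitor of triglyceride lipase (r = 0.86), and TCFL5, a transcription factor (r = 0.84). For CYP7A1 they were ZNF112 (r = 0.69), NPNT (r = 0.69) and CAPRIN2 (r = 0.69). These values describe likeness over livers that share diets and the library differences given above, and no test was made.

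Other genes of the cycle were taken from lists of 19 synthesis, 17 transport and 20 regulator genes, of which 14, 11 and 19 were tested in the liver. Their median log2 differences for the pooled oil diets were 0.18, -0.01 and 0.02, beside 0.01 over all genes tested. Of the synthesis genes 3 rose and 1 fell, of the transport genes 1 rose, and of the regulators 3 rose and 2 fell, where 8.95% of all genes rose and 2.83% fell.

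SLC27A2, which activates very long chain fatty acids and bile acid precursors, had the largest change in the synthesis list. It averaged 83.4 ± 17.8 CPM in control and 94.9 ± 22.7 with PFA, against 297 ± 55.7 with OO and 211 ± 45.0 with OO + PFA (SD, n = 6, 6, 6 and 5). The groups with and without oxidized oil did not overlap, since the highest PFA pig had 118 CPM and the lowest OO + PFA pig 162. Of all genes tested, 0.781% had groups that did not overlap with OO higher than control. With OO + PFA higher, the share was 7.13% against control and 4.69% against PFA. The share for both oil diets against both diets without oxidized oil was not counted. SLC27A2 rose with OO (log2 1.83, SE 0.19, adjusted p = 2.14e-06) and for the pooled oil diets (1.49, adjusted p = 9.56e-08). It also rose with OO + PFA against control (1.34, adjusted p = 3.28e-04) and against PFA (1.15, adjusted p = 0.00156).

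ACOT8, a peroxisomal thioesterase, rose for the pooled oil diets by 0.44 (adjusted p = 0.0439), and FDXR, which passes electrons to mitochondrial CYP enzymes, by 0.67 (adjusted p = 0.0325). AKR1D1, the reductase that gives bile acids their bent ring, fell by 0.46 (adjusted p = 0.0136), from means of 1233 and 1373 CPM in control and PFA livers to 900 and 989 CPM with OO and OO + PFA. EPHX1, an epoxide hydrolase that has been linked to bile acid uptake, rose by 0.49 (adjusted p = 0.0214).

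Among the regulators, the xenobiotic receptors NR1I2 (PXR) and NR1I3 (CAR) fell. NR1I2 averaged 173 ± 35.1 CPM in control livers, 127 ± 19.5 with PFA, 121 ± 24.3 with OO and 108 ± 6.69 with OO + PFA. It fell by 0.51 with OO (adjusted p = 0.0472) and by 0.68 with OO + PFA (adjusted p = 0.0166) against control, and by 0.37 for the pooled oil diets (adjusted p = 0.0224). NR1I3 averaged 83.1 ± 10.7, 66.7 ± 7.03, 56.0 ± 12.1 and 52.9 ± 9.25 CPM in the same order, and fell by 0.57 with OO (adjusted p = 0.0255), by 0.65 with OO + PFA (adjusted p = 0.0189) and by 0.45 for the pooled oil diets (adjusted p = 0.00737). Within the PigLiv form the OO differences from control were -0.25 for NR1I2 and -0.30 for NR1I3, and neither was called. Over all alternatives the OO difference of NR1I2 was called in 10 of 34 and that of NR1I3 in 26 of 34. Both genes were also called across the 4 diets (adjusted p = 0.0255 and 0.0232).

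The transcription factor CEBPA rose by 1.27 for the pooled oil diets (adjusted p = 0.0400). GPBAR1, the bile acid receptor of the cell surface, rose by 0.81 (adjusted p = 0.0480) and MAFG, a repressor of synthesis genes, by 0.78 (adjusted p = 0.0413). Of 33 alternatives the pooled call was kept in 17 for CEBPA, 10 for GPBAR1 and 13 for MAFG. It was kept in 20 for FDXR, 13 for ACOT8 and 31 each for EPHX1 and AKR1D1. Exons of CEBPA, GPBAR1, MAFG, FDXR and ACOT8 are 65.1, 66.1, 61.7, 63.6 and 60.8% GC. With the GC slope of the library in the fit these 5 genes were not called for the pooled oil diets (differences of 0.08, 0.18, 0.21, 0.18 and 0.19), and neither were EPHX1 (0.41), AKR1D1 (-0.28) and NR1I2 (-0.32), whereas SLC27A2 (1.68) and NR1I3 (-0.44) were. Against control NR1I2 was called in that fit with OO (adjusted p = 0.0292) and with OO + PFA (adjusted p = 0.0296). The receptors next to NR0B2 in the pathway were not called: NR1H4 averaged 97.6 ± 14.7 CPM in control and 89.2 ± 13.5 with OO, and NR5A2 44.2 ± 3.94 and 37.4 ± 5.38 CPM.

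**Figure D4:**
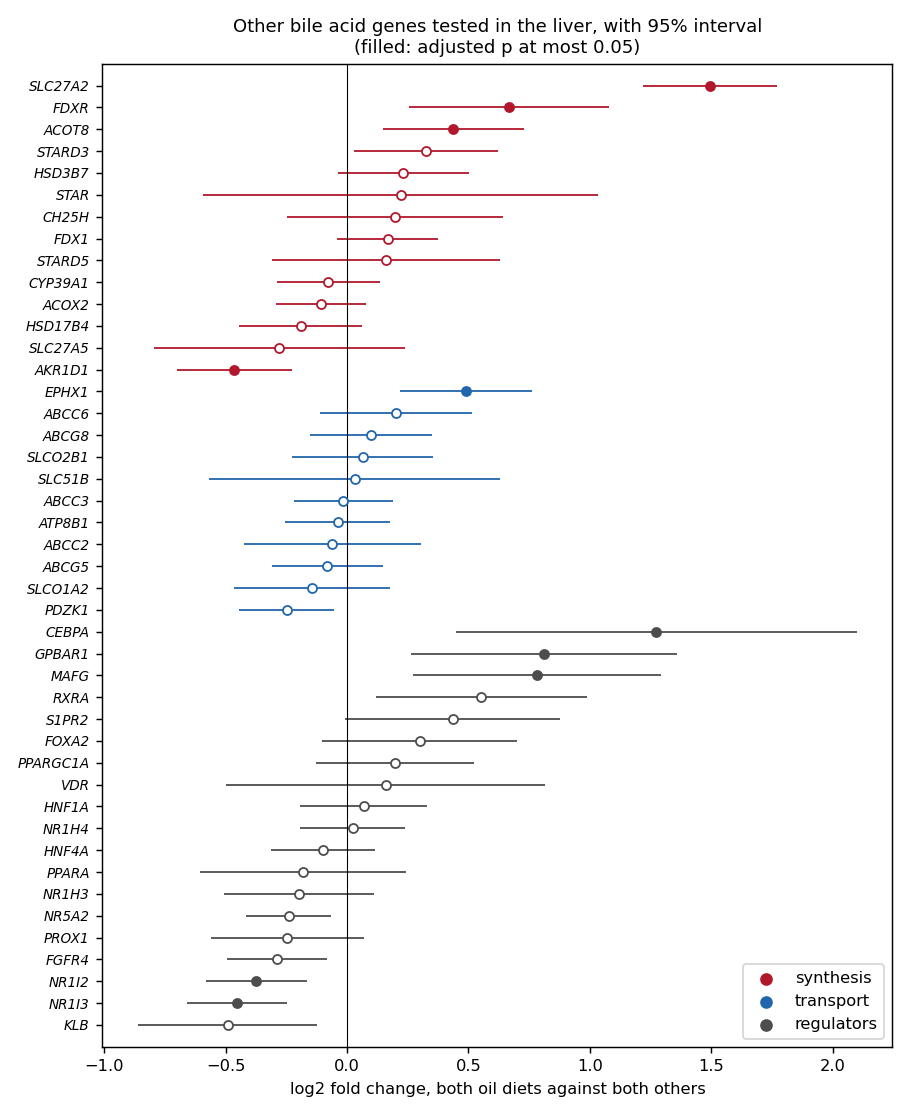
Fitted log2 fold change (horizontal axis) of 44 other bile acid genes for both oil diets against both diets without oxidized oil, with 95% intervals, colored by list; filled points passed an adjusted p of 0.05. SLC27A2 stands highest at 1.49, 7 genes are filled on the right and 3 on the left.

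Lists of cell type and zone markers were read against the 8.95% of all genes called higher and the 2.83% called lower for the pooled oil diets. The summed level of 5 cholangiocyte markers was 17.3 to 34.9 CPM in control livers, 19.8 to 54.2 with PFA, 28.9 to 66.0 with OO and 31.9 to 54.6 with OO + PFA, with 1 of 5 called higher for the pooled oil diets, and KRT19 of that list was not matched. Pericentral hepatocyte markers, genes of the zone where CYP7A1 is also found, summed to 3280 to 4669 CPM in control and 2588 to 3976 with PFA. Their sums were 2349 to 3137 CPM with OO and 2408 to 3185 with OO + PFA, with 2 of 5 called lower. The sums with oxidized oil overlapped those with PFA, whose median was also below that of control (3317 against 4219 CPM). Of 8 general hepatocyte markers 2 were called lower (median log2 difference -0.28), and of 7 periportal hepatocyte markers 1 was called higher (median 0.07). Of 6 macrophage markers 1 was called higher, and none of 6 stellate cell and fibroblast, 2 endothelial and 3 erythroid markers was called. Their part in the differences of the members was not tested.

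The ileum served as contrast, in the 10 pigs that gave both tissues. CYP27A1, CYP7B1, SLC27A6 and NR0B2, the 4 members with at least 10 counts in every library, were all called higher in liver. With TMM scaling each was higher in liver in 10 of 10 pigs. Of the 14982 genes tested 78% differed, with 37.5% higher and 40.5% lower in liver. CYP7A1, ABCB11 and SLC10A1 passed the filter on low counts through the liver libraries alone, so that a difference was bound to be found, and their levels are given as a description. Levels in this paragraph and the next are scaled over both tissues together and so differ from those above. SLC10A1 averaged 1108 ± 111 CPM in liver (SD, n = 10) and had 0 counts in all 10 ileum libraries, which makes it at least 115962-fold higher in liver against a floor of 3 counts over the 10 libraries. ABCB11 averaged 751 ± 112 CPM in liver and had 12 counts in the ileum (exact Poisson interval 6.20 to 21.0), a ratio of 19653 (11251 to 38035). CYP7A1 averaged 344 ± 136.8 CPM in liver and had 7 counts in the ileum (2.81 to 14.4), a ratio of 15429 (7488 to 38375). These intervals cover counting error only.

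The remaining members were present in both tissues. CYP27A1 was at 721 ± 109 CPM in liver and 4.94 ± 1.42 in ileum, a fitted difference of 7.19 (log2, SE 0.17, adjusted p = 7.99e-20), and CYP7B1 at 265 ± 77.8 and 14.7 ± 4.45 CPM, a difference of 4.16 (SE 0.19, adjusted p = 4.47e-15). SLC27A6 was at 4.63 ± 2.98 and 1.16 ± 0.331 CPM (1.98, SE 0.25, adjusted p = 2.15e-07). NR0B2 was at 8.38 ± 3.78 CPM in liver and 2.40 ± 2.004 in ileum (1.78, SE 0.42, adjusted p = 5.24e-04). The NR0B2 call depended on the scaling between tissues, since library totals in place of TMM gave 0.67 (adjusted p = 0.148). CYP27A1, CYP7B1 and SLC27A6 were called either way. The direction in single pigs also depended on it. NR0B2 had 199 counts of 23734045 in the ileum of pig 71 against 135 of 23109323 in its liver. In pig 134 it had 215 of 22961745 against 116 of 24478611. SLC27A6 in pig 80 had 43 of 24338165 against 43 of 28418932. All other pigs stayed higher in liver for both genes.

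**Figure D5:**
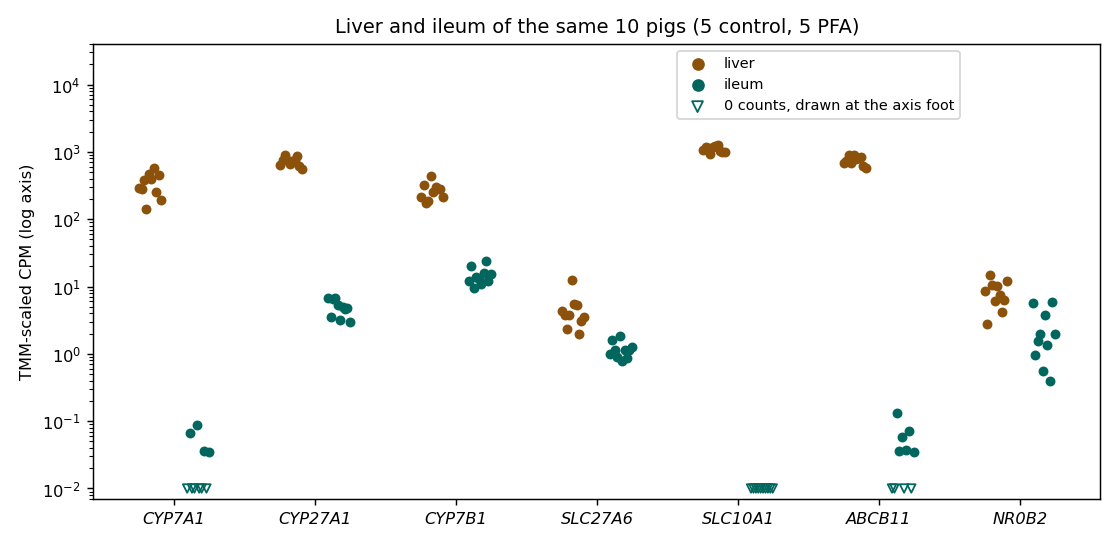
TMM-scaled CPM (log axis) of the 7 members in liver and ileum of the same 10 pigs; each point is 1 library, and open triangles at the foot are libraries with 0 counts. All 10 ileum libraries of SLC10A1 are at 0, and the liver and ileum points of NR0B2 overlap in range, from 2.75 to 15.1 CPM in liver and up to 5.93 CPM in ileum.

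No member was called for PFA against control in the ileum. Of 4 members tested there, CYP27A1, CYP7B1, NR0B2 and SLC27A6, edgeR called none and DESeq2 none, with 1 at an unadjusted p under 0.05, and edgeR called 0% of all genes against 4 genes by DESeq2. SLC27A6 averaged 1.37 ± 0.188 CPM in control and 2.06 ± 0.456 with PFA (SD, n = 5 each), a difference of 0.58 (SE 0.22, adjusted p = 0.991). It ranged from 1.14 to 1.64 CPM in control and from 1.65 to 2.68 with PFA. The highest control and the lowest PFA value almost touch and rest on only 43 and 30 counts. The share of all genes with groups apart in this way was not counted in the ileum. NR0B2 averaged 3.91 ± 3.02 and 3.19 ± 3.25 CPM. FGF19, the ileal hormone that represses CYP7A1 in the liver, averaged 8.01 ± 8.59 CPM in control and 4.54 ± 4.79 with PFA in the ileum and had 0 counts in all 23 livers.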

How the data were processed

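Poly(A) RNA of liver and ileum was sequenced by the authors as paired-end, stranded TruSeq libraries. The authors aligned reads with STAR 2.6.1d to Sscrofa11.1 and deposited HTSeq read counts per Ensembl gene, not normalized; the strand option and annotation release are not given in the sources used here. Whole-series tables and sample files differed in 0 values.

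Groups came from the source names. The members and gene lists were chosen with earlier results of these data known. Symbols came from a gene name table, and positions, exon lengths, GC content and upstream sequences from RefSeq for 13706 genes. All 10 members are named, together with other listed genes called in a liver test, up to 4 more for background, and the 3 genes most like CYP7A1 and NR0B2.

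Counts were filtered with filterByExpr, scaled by TMM and tested with the quasi-likelihood test of edgeR 4.0.16 in R 4.3.3, two-sided, over all genes kept (13831 in liver), with Benjamini-Hochberg adjustment and calls at an adjusted p of at most 0.05. One fit of 23 livers gave all diet comparisons, without OO + PFA pig 77. DESeq2, in version 1.42.0, was run as an alternative; the authors used other versions of it for their own tests. Log2 CPM had a prior count of 2. Floors were 3 counts, and intervals are 95% intervals. The depth limits genes such as SLC27A6. Other alternatives were scaling, filters, covariates, library subsets, all 24 liver libraries and leaving out each pig. Fits and permutations were tested on simulated data, with Python 3.11.15 and scipy for the permutations.

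Liver and ileum were fitted with a diet term over 20 libraries, and the pig number in the titles pairs the tissues because both came from the same animal. Deviations from the diet mean correlated between tissues of a pig by -0.41 to 0.57 (median -0.02, 10 pairs, 11562 genes). Between tissues of different pigs of a diet the correlations were much alike, at -0.57 to 0.55 (median -0.04, 40 pairs). The fit with pig as a replicate block is given with the alternatives. Replicates are separate pigs of 1 pen per diet, so p-values measure the spread between penmates.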

Additional observations from a re-analysis of the deposited data

Results flagged for a closer look

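In 36 groups of 5 or 6 pigs the members were checked for a pig far from the rest of its group, which chance marks in about 1 of 20 groups, and 3 such pigs were found. SLC27A6 reached 8.37 CPM in the liver of PFA pig 95, and the next PFA pig had 3.64 CPM. SLC27A6 reached 8.23 CPM in the liver of OO pig 99, where the next OO pig had 5.10 CPM. NR0B2 reached 8.85 CPM in the ileum of PFA pig 134, where the next PFA pig had 2.88 CPM. The gap made up a fraction of 0.759, 0.627 and 0.744 of the group's range.

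The liver library of OO + PFA pig 77 entered only the alternative fit of all 24 liver libraries. It held NR0B2 at 26.3 CPM, above the highest control pig at 10.4 CPM. The same library held most other members below all 23 livers tested. These were CYP7A1 (58.5 CPM), ABCB11 (215 CPM), SLC10A1 (457 CPM), CYP7B1 (42.2 CPM) and SLC27A6 (0.770 CPM). CYP27A1, at 491 CPM, lay within the range of those livers. The lowest of those livers had 61.0 CPM of CYP7A1 and 0.877 CPM of SLC27A6, and the SLC27A6 level of pig 77 rests on 11 counts. The study reports a C bias in the bases of the liver it excluded. Exons of NR0B2 and CYP27A1 are 61.6 and 58.9% GC. Those of SLC10A1, ABCB11, CYP7A1 and SLC27A6 are 46.0, 44.3, 42.1 and 38.3% GC. The part of base composition in these levels was not tested.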

How the results depend on the processing

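Of the 7 members, the test across diets called 1, DESeq2 called 2, and libraries of the PigLiv form alone and of the PL form alone called 0. OO against control called 0 members, DESeq2 called 2, and a term for Y-linked expression and a fit of the 2 diets alone called 1 each. OO + PFA against control called 1 member, and 0 within either title form, where the PL form has a single OO + PFA library. OO + PFA against PFA called 1, and 0 within the PigLiv form. The pooled oil diets called 1 member, and 2 with the Y-linked term. Leaving out each pig gave 1 to 2 called members across diets, 0 to 1 for OO and for OO + PFA against control, and 1 to 2 for the pooled oil diets. The cause of these changes was not tested. The subsets by title form also hold fewer libraries, and the part of this was not tested either. NR0B2 for the pooled oil diets was called in 33 of 33 alternatives, with differences of 1.79 to 2.59. For all genes, the pooled oil diets called 1630, DESeq2 2218, the fit with GC slope 426 and the Y-linked term 1313. Across diets 506 genes were called, 1776 by DESeq2 and 157 within the PigLiv form. OO against control called 375, DESeq2 1079, the Y-linked term 268 and the 2 diets alone 194. OO + PFA against control called 702 and 237 within the PigLiv form, and against PFA 218 and 30. The counts of members are to be read beside these totals.

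Between liver and ileum 7 members were called, and 7 with pig as a replicate block, the pairing by animal. Of all 14982 genes tested, 11688 were called, and 11708 with the block. CYP7A1, ABCB11 and SLC10A1 passed the filter through the liver libraries alone, so their calls were bound to be found. The block changed no call of a member, and NR0B2 differed by 2.09 with it and SLC27A6 by 1.85. With at least 10 counts in every library only 4 members were tested, and 4 were called, beside 8976 of 11562 genes. Library totals in place of TMM, an alternative chosen after seeing the data, called 6 members and 12990 of 14982 genes. Counts below about 100 per library, as for SLC27A6 in most livers, and 5 or 6 pigs per diet limit the differences that could be detected.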
